A study of Mus musculus with 8 samples.

Results

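T-box genes encode transcription factors that share a DNA-binding domain, the T-box, and many of them set the identity of embryonic cell layers and organs. With earlier results of these data known, a list of 9 such genes was chosen by gene symbol. It holds Tbxt (listed as T in the annotation), Eomes, Tbx1, Tbx2, Tbx3, Tbx4, Tbx6, Tbx20 and Mga. They are 9 of the 48440 genes counted and 9 of the 17 T-box genes that the annotation holds. Their levels were measured by poly(A) RNA sequencing in mouse embryonic stem (ES) cells, 1 day into their differentiation in culture, with 8 libraries of 4 genotypes.

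All lines derive from MK6 ES cells, a line from the C57BL/6J mouse strain, and all were differentiated without feeder cells. They were plated in ES cell medium with LIF, a MEK inhibitor and the GSK3 inhibitor CHIR99021, which activates Wnt signalling. N2/B27 medium without these followed, and differentiation was then started by adding CHIR99021 to it. WT cells carry no engineered Tbxt allele. In delE6/delE6 cells exon 6 of Tbxt was deleted from both alleles, and the 2 libraries come from different clones. In delE6/+ cells the exon was deleted from 1 allele. In Insert ASAY cells both alleles carry a pair of human Alu elements, AluSx1 and AluY, in the introns that flank exon 6, so that the exon can be skipped during splicing. The exon 6 deletion was engineered in feeder-free culture and the insertion on mouse embryonic fibroblast feeders. Each genotype has 2 libraries, which the authors describe as biological replicates. Whether the pairs other than delE6/delE6 were separate by clone or by culture is not given in the sources used here. The p-values measure the spread between these libraries, which may leave out that between clones. The libraries hold 24618587 to 28445952 reads assigned to genes, and levels are given as CPM (reads of a gene per 1000000 reads assigned to genes) on library sizes scaled by edgeR's TMM method.

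In the gastrulating embryo, Wnt and Nodal signals induce Tbxt and Eomes in the primitive streak, where Tbxt drives posterior mesoderm, Eomes drives definitive endoderm and anterior mesoderm, and Tbx6 commits cells to paraxial mesoderm. Tbx3 belongs to the subfamily of Tbx2, Tbx4 and Tbx5 and is also part of the network that sustains naive pluripotency in mouse ES cells. Mga pairs with Max and anchors PRC1.6, a Polycomb complex that represses germline genes in ES cells.

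The delE6 alleles lack, and the inserted Alu pair flanks, exon 6 of Tbxt on the plus strand of chromosome 17, and its sequence is shown because counts of Tbxt include reads from it where it is present. Tbxt spans chr17:8434423-8442496 of GRCm38, and exon 6 is chr17:8438616-8438789. The exon holds 174 coding bases, which are 58 codons with 0 bases over, so that joining exons 5 and 7 keeps the reading frame. It makes up 7.52% of the 2315 bases of annotated Tbxt exons. From GENCODE M21 transcripts the exon and both exon junctions read as follows, with capitals for the first 20 bases after the end of exon 5 in each junction.
Tbxt exon 6: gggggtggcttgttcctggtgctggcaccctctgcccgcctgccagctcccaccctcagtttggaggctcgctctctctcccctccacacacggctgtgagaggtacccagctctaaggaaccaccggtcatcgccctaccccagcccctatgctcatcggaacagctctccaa
Tbxt exons 5 and 6 joined: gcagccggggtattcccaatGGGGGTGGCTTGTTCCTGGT
Tbxt exons 5 and 7 joined: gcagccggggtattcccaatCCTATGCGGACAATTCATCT
The deposited counts are sums per gene, so reads over these junctions were not analysed here and the isoforms could not be told apart.

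None of the 9 genes was too low to enter the test, which kept 17049 genes, but they differ widely in what the depth can show. Per kilobase of annotated exon, so that levels can be compared between genes, the WT means were 15.98 CPM for Mga, 9.11 for Tbx3, 3.37 for Eomes, 2.62 for Tbx4, 0.89 for Tbx1, 0.704 for Tbxt, 0.562 for Tbx6, 0.44 for Tbx2 and 0.126 for Tbx20. Tbxt, Tbx2, Tbx6 and Tbx20 had only 18 to 54 reads in any library, and counting error alone was 19.6% to 23.6% of the value in the shallowest library of each. Tbx1 had 41 to 93 reads, Tbx4 78 to 273, Eomes 168 to 554, Tbx3 308 to 1752 and Mga 5108 to 7084. The half-width of the 95% interval of a log2 fold change ran from 0.724 to 0.81 for Tbx6, the least precise gene, and from 0.106 to 0.107 for Mga. It ran from 0.481 to 0.537 for Tbx2, from 0.53 to 0.644 for Tbxt, from 0.577 to 0.673 for Tbx20 and from 0.536 to 0.574 for Tbx1. Tbx3, which had the widest gap between replicates, had 0.502 to 0.596.

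**Figure D1:**
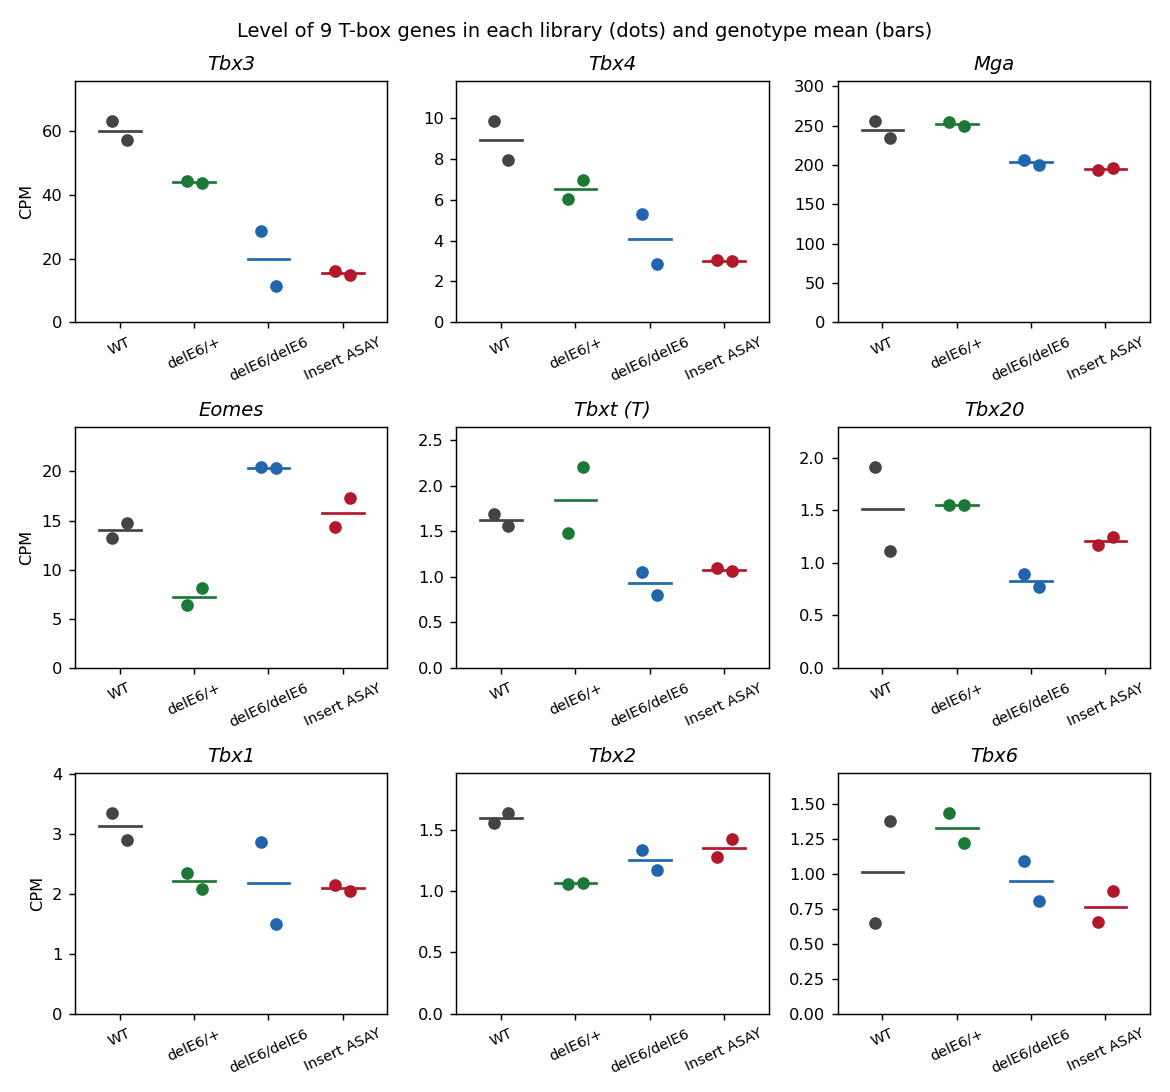
Level of each T-box gene in CPM (vertical axis of each panel, from 0) in the 2 libraries (dots) of each genotype (horizontal axis), with bars for the mean. Tbx3 and Tbx4 are lowest in delE6/delE6 and Insert ASAY libraries, while Eomes is lowest in delE6/+ libraries (6.36 and 8.13 CPM) and highest in delE6/delE6 libraries.

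The edited gene itself was weakly expressed in every genotype. Tbxt was measured at 1.7 and 1.56 CPM in WT, at 1.05 and 0.807 in delE6/delE6, at 1.09 and 1.06 in Insert ASAY and at 1.48 and 2.21 in delE6/+ libraries. All 4 libraries of the delE6/delE6 and Insert ASAY lines lay below all 4 libraries of WT and delE6/+ cells, whose ranges overlap each other. Tbxt fell in delE6/delE6 against WT cells (log2 fold change -0.81, SE 0.277, adjusted p = 0.036), from a mean of 1.63 ± 0.0943 to 0.93 ± 0.174 CPM (SD, n = 2 each). The deleted exon could account for 7.52% of exon bases. In Insert ASAY cells the log2 difference from WT was -0.60 (95% interval -1.17 to -0.02, adjusted p = 0.083) and in delE6/+ cells 0.17 (-0.36 to 0.70, adjusted p = 0.65). The call in delE6/delE6 cells rests on 48 reads in both mutant libraries together, and DESeq2's Wald test (adjusted p = 0.152), the fit of these genotypes alone (adjusted p = 0.0558) and 5 of the 8 fits without a library did not give it: those without WT replicate 1 or 2, delE6/delE6 replicate 2 or Insert ASAY replicate 1 or 2 (adjusted p 0.0531 to 0.183).

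Eomes, the T-box gene of endoderm and anterior mesoderm, was the only member called in opposite directions against WT. Its levels were 13.2 and 14.8 CPM in WT, 20.4 and 20.3 in delE6/delE6, 14.4 and 17.3 in Insert ASAY, and 6.36 and 8.13 in delE6/+ libraries. The delE6/delE6 libraries lay above all others and the delE6/+ libraries below all others, with WT and Insert ASAY overlapping in between. Against WT, Eomes rose in delE6/delE6 cells (log2 fold change 0.54, SE 0.117, adjusted p = 0.00361) and fell in delE6/+ cells (-0.95, SE 0.132, adjusted p = 0.000136), while the difference in Insert ASAY cells was 0.18 (95% interval -0.08 to 0.44, adjusted p = 0.244). Tested directly, delE6/+ cells had 2.82-fold less Eomes than delE6/delE6 cells (log2 fold change -1.49, SE 0.129, adjusted p = 1.5e-06). The rise in delE6/delE6 cells is close to the 0.5 limit, and without WT replicate 1 it was 0.46 (adjusted p = 0.0522).

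Eomes also marks trophoblast, and the sum of a list of 7 trophoblast genes was also lowest in delE6/+ libraries. Summed over the list, the level was 380.7 to 407.2 CPM in WT, 391.3 to 567.6 in delE6/delE6, 323.9 to 350.2 in Insert ASAY and 165.8 to 174.1 in delE6/+ libraries. Most of that sum was from Krt8 and Krt18, keratins that other epithelial cells and early differentiating ES cells also make, which both fell in delE6/+ cells (log2 fold changes -1.49 and -1.15). Elf5, a defining trophoblast factor, had 0 to 2 reads in any library. Cdx2, another defining factor that also acts in the posterior embryo, rose in delE6/+ cells (log2 fold change 3.06, adjusted p = 0.00017) and in Insert ASAY cells (1.78), with 3 to 54 reads per library. Against WT 1 of the 6 tested genes of the list rose and 3 fell in delE6/+ cells, 2 fell in delE6/delE6 cells, and 1 rose and 4 fell in Insert ASAY cells, where 13.5%, 12.7% and 21.3% of all tested genes were called. Their part in the Eomes differences was not tested.

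Tbx6, which directs paraxial mesoderm, was the lowest gene by reads and none of its differences was called. Its levels were 0.65 and 1.38 CPM in WT, 1.09 and 0.807 in delE6/delE6, 0.656 and 0.878 in Insert ASAY and 1.44 and 1.23 in delE6/+ libraries. WT replicates alone differed 2.12-fold, with 18 and 37 reads, and they spanned nearly the whole range of the mutant libraries. The log2 differences from WT were -0.1 in delE6/delE6 (95% interval -0.86 to 0.67), -0.39 in Insert ASAY (-1.19 to 0.4) and 0.4 in delE6/+ cells (-0.32 to 1.13). The largest difference was that of Insert ASAY against delE6/+ cells (-0.80, 95% interval -1.56 to -0.03, adjusted p = 0.0735), which was called under 6 of 15 alternatives: no filter, the fit of these genotypes alone, and without either library of WT or delE6/delE6 cells (adjusted p 0.0235 to 0.0433).

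Tbx3, the pluripotency-linked member, had the largest differences from WT of the 9 genes. It was measured at 63.2 and 57.4 CPM in WT, 44.4 and 43.7 in delE6/+, 28.7 and 11.3 in delE6/delE6 and 16.3 and 14.7 in Insert ASAY libraries. The delE6/delE6 and Insert ASAY libraries lay below all WT and delE6/+ libraries, and the range of the delE6/delE6 clones enclosed the Insert ASAY values. Tbx3 fell 3.9-fold in Insert ASAY cells (log2 fold change -1.96, SE 0.255, adjusted p = 5.8e-05) and 3.04-fold in delE6/delE6 cells (-1.60, SE 0.249, adjusted p = 0.00049). In delE6/+ cells the difference was -0.45 (95% interval -0.96 to 0.05, adjusted p = 0.161), with both libraries below both WT libraries. All 4 genotypes share 1 estimate of the spread of a gene, so this interval also reflects the wide gap between the delE6/delE6 clones. WT libraries differed 1.1-fold and delE6/+ libraries 1.01-fold in Tbx3. Under the 15 alternatives the difference ran from -0.52 to -0.38 and was not called. Between mutant lines, Tbx3 was higher in delE6/+ than in delE6/delE6 cells by 1.15 (SE 0.254, adjusted p = 0.00239) and lower in Insert ASAY than in delE6/+ cells by a log2 fold change of -1.51 (SE 0.259, adjusted p = 0.000317).

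The delE6/delE6 clones differed 2.54-fold in Tbx3, from 710 to 308 reads. Only 4 of the 12837 tested genes that averaged 2 CPM or more had a wider gap between these libraries. Without replicate 2 the log2 fold change of delE6/delE6 against WT cells was -1.07, and without replicate 1 it was -2.41, called in both cases. Against delE6/delE6 cells, delE6/+ cells had 0.61 more without delE6/delE6 replicate 2 and 1.96 more without replicate 1, also called. The comparison with Insert ASAY cells turned with the clone: it was -0.36 with both (adjusted p = 0.419), -0.90 without delE6/delE6 replicate 2 (adjusted p = 2e-07) and 0.45 without replicate 1 (adjusted p = 0.0053, below the 0.5 limit). Which of the lines had less Tbx3 is therefore not settled by these libraries.

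Tbx4, known for its role in hindlimb and lung, followed the same order of genotypes at a lower level. Its levels were 9.85 and 7.96 CPM in WT, 6.06 and 6.99 in delE6/+, 5.3 and 2.86 in delE6/delE6 and 3.02 and 3 in Insert ASAY libraries. As for Tbx3, delE6/delE6 replicate 2 was the lowest library and replicate 1 lay between the Insert ASAY and delE6/+ libraries. Tbx4 fell in Insert ASAY cells (log2 fold change -1.56, SE 0.223, adjusted p = 0.000111) and in delE6/delE6 cells (-1.14, SE 0.215, adjusted p = 0.00166), and its difference in delE6/+ cells was -0.45 (95% interval -0.89 to -0.02, adjusted p = 0.108). As for Tbx3, the interval in delE6/+ cells also reflects the gap between the delE6/delE6 clones. Under the 15 alternatives that difference ran from -0.60 to -0.29 and was not called. In delE6/delE6 cells the value was -0.75 without delE6/delE6 replicate 2 and -1.64 without replicate 1, called in both cases. Against delE6/delE6 cells, delE6/+ cells had 0.69 more on the log2 scale (SE 0.224, adjusted p = 0.023), a call that was lost without delE6/delE6 replicate 2 (0.29, adjusted p = 0.182), without delE6/+ replicate 1 (0.79, adjusted p = 0.0524) and without delE6/+ replicate 2 (0.58, adjusted p = 0.139). Over the 8 libraries Tbx3 and Tbx4 had a Pearson correlation of log2 CPM of 0.983 (Spearman 0.976), the highest of the pairs among the 9 genes. These points share library and genotype, so the value is a description only.

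**Figure D2:**
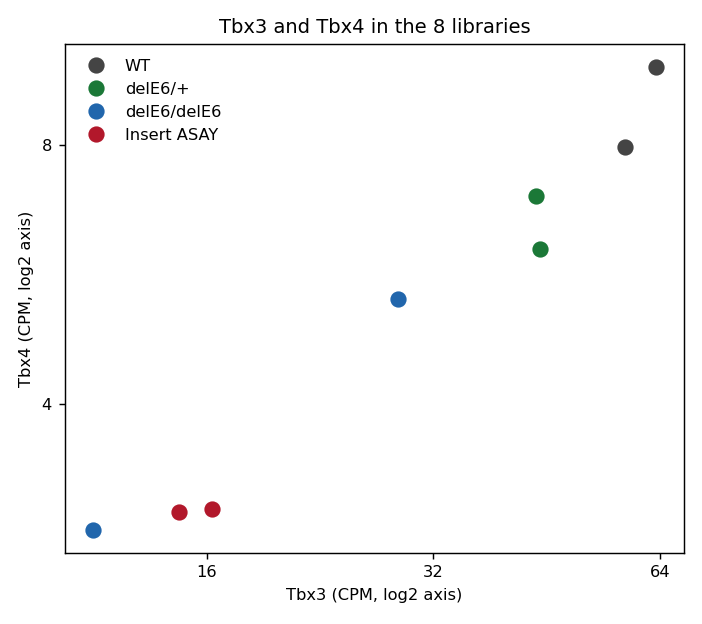
Tbx3 (horizontal axis) against Tbx4 (vertical axis) in CPM, both on log2 axes, with 1 dot per library coloured by genotype. The 8 libraries follow 1 line from WT at the top right to Insert ASAY and delE6/delE6 replicate 2 at the bottom left, and delE6/delE6 replicate 1 (28.7 and 5.3 CPM) sits between those and the delE6/+ libraries.

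Tbx2, a repressor that lies 44473 bases before Tbx4 on chromosome 11, did not follow its neighbour. It was measured at 1.55 and 1.64 CPM in WT, 1.34 and 1.17 in delE6/delE6, 1.27 and 1.43 in Insert ASAY and 1.06 and 1.06 in delE6/+ libraries, and all 6 mutant libraries lay below both WT libraries. None of its differences was called. The log2 difference from WT was -0.58 in delE6/+ cells (95% interval -1.1 to -0.08, adjusted p = 0.077), -0.35 in delE6/delE6 cells (-0.84 to 0.14) and -0.24 in Insert ASAY cells (-0.72 to 0.24).

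Tbx1 and Tbx20, best known from the pharyngeal arches and the heart, were both weakly expressed. Tbx1 was measured at 3.36 and 2.9 CPM in WT, 2.87 and 1.5 in delE6/delE6, 2.15 and 2.05 in Insert ASAY and 2.35 and 2.08 in delE6/+ libraries. Every mutant library was below both WT libraries, by the smallest margin in delE6/delE6 replicate 1. The log2 differences from WT were -0.53, -0.58 and -0.5 in that order of lines, with adjusted p of 0.115, 0.0726 and 0.152, and none was called. Without delE6/delE6 replicate 1 the difference in delE6/delE6 cells was -1.05 and called (adjusted p = 0.00136), and with no filter it was -0.53 and called (adjusted p = 0.0461). The difference in Insert ASAY cells was called under 4 of 15 alternatives, with no filter, in the fit of these genotypes alone and without either delE6/delE6 library (adjusted p 0.00986 to 0.017).

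Tbx20 was measured at 1.91 and 1.12 CPM in WT, 0.891 and 0.77 in delE6/delE6, 1.17 and 1.24 in Insert ASAY and 1.55 and 1.55 in delE6/+ libraries. Its delE6/delE6 libraries lay below the other 6, and WT enclosed both remaining lines. Tbx20 fell in delE6/delE6 against WT cells (log2 fold change -0.87, SE 0.299, adjusted p = 0.0375). The call was kept under 7 of 15 alternatives and lost with DESeq2 (adjusted p = 0.142), in the fit of these genotypes alone (adjusted p = 0.0814) and without any of 6 libraries: WT replicate 1, where the value was -0.43 (adjusted p = 0.381), delE6/delE6 replicate 2 (adjusted p = 0.136) and either library of Insert ASAY or delE6/+ cells (adjusted p 0.0544 to 0.0556).

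Mga, the largest and most abundant member, had small but precise differences. Its levels were 255.7 and 234.6 CPM in WT, 254.5 and 249.6 in delE6/+, 206.8 and 200.3 in delE6/delE6 and 193.1 and 196.3 in Insert ASAY libraries. The delE6/delE6 and Insert ASAY libraries all lay below the WT and delE6/+ libraries, whose ranges overlap. Against WT the log2 fold change was -0.27 in delE6/delE6 (SE 0.0491, adjusted p = 0.00138) and -0.33 in Insert ASAY cells (SE 0.0491, adjusted p = 0.000144), past the p threshold but not the 0.5 limit, so neither is counted as called. In delE6/+ cells it was 0.04 (95% interval -0.07 to 0.15), and the same sizes returned between the mutant lines, with 0.31 for delE6/+ against delE6/delE6 and -0.37 for Insert ASAY against delE6/+ cells.

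The partners of Mga in PRC1.6 were all expressed, and none of 14 was called in any of the 6 comparisons by edgeR or by DESeq2. In these comparisons edgeR called 5.16% to 27.5% of all tested genes. An unadjusted p under 0.05 in edgeR was found for 5 of the partners in delE6/delE6, 3 in delE6/+ and 9 in Insert ASAY against WT cells. The share of all tested genes at that limit was not computed, so these counts cannot be set against a background. In these lines the median log2 fold changes of the partners were 0.1, -0.0045 and 0.14, beside medians over all tested genes of -0.0096, -0.00059 and -0.0051. Max, which pairs with Mga, had 45.03 CPM in WT and 54.77 in Insert ASAY cells. The log2 difference of 0.28 (adjusted p = 0.00468) passed the p threshold but, like that of Mga, not the 0.5 limit. The same held in Insert ASAY cells for Hdac1 (0.42), Cbx3 (0.37), Tfdp1 (0.23) and Cbx1 (0.18), all higher. It also held there for Rnf2 (-0.27) and Wdr5 (-0.13), both lower. In delE6/delE6 cells it held for Yaf2 (0.30), Cbx3 (0.25), Hdac1 (0.23) and Tfdp1 (0.13), all higher. In delE6/+ cells it held for Cbx3 (0.17), also higher.

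**Figure D3:**
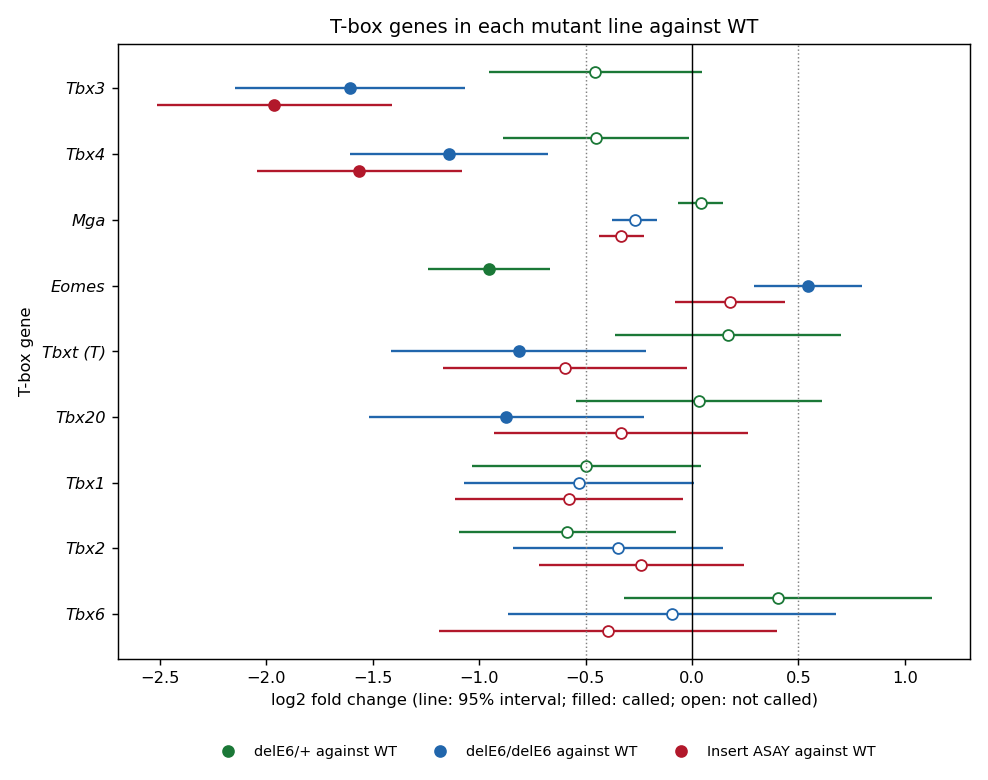
Log2 fold change of each T-box gene (vertical axis) against WT (horizontal axis) in the 3 mutant lines, with lines for 95% intervals, filled dots for called differences and dotted lines at -0.5 and 0.5. Tbx3 reaches -1.96 in Insert ASAY cells, and Eomes is called lower in delE6/+ and higher in delE6/delE6 cells.

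A difference counts as called where the adjusted p was under 0.05 and the log2 fold change was above 0.5 or below -0.5. In delE6/delE6 against WT cells 5 of the 9 genes were called, Eomes higher and Tbxt, Tbx3, Tbx4 and Tbx20 lower, where 12.7% of all tested genes were called (6.12% higher and 6.59% lower). In Insert ASAY against WT cells 2 were called, Tbx3 and Tbx4, both lower, where 21.3% of all genes were called (11.5% higher and 9.85% lower), so that this count was near the background. In delE6/+ against WT cells only Eomes was called, lower, beside 13.5% of all genes (6.60% higher and 6.89% lower). The median log2 fold change of the 9 genes was -0.53 in delE6/delE6, -0.39 in Insert ASAY and -0.45 in delE6/+ cells, where the median of all tested genes was -0.0096, -0.0051 and -0.00059. These comparisons share the WT libraries. As the 9 genes were chosen with earlier results of these data known, their counts and medians do not test the T-box family as a whole. With DESeq2 the numbers called were 3, 2 and 1, and the 3 in delE6/delE6 cells left out Tbxt and Tbx20.

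The mutant lines were then compared with each other. In delE6/+ against delE6/delE6 cells 5 genes were called, Tbxt, Tbx3, Tbx4 and Tbx20 higher and Eomes lower, beside 22.2% of all genes (11.2% higher and 11.0% lower). Insert ASAY against delE6/+ cells gave 4 calls, Eomes higher and Tbxt, Tbx3 and Tbx4 lower, beside 27.5% (14.6% higher and 13.0% lower). In Insert ASAY against delE6/delE6 cells 0 of 9 were called by edgeR and 0 by DESeq2, beside 5.16% of all genes (2.79% higher and 2.38% lower). Only Eomes had an unadjusted p under 0.05 there, and it also passed the adjusted threshold (adjusted p = 0.0498) but not the 0.5 limit, at a log2 fold change of -0.37 (95% interval -0.62 to -0.12). The intervals of the other genes reach from -0.96 to 0.24 for Tbx3 and from -0.13 to 1.21 for Tbx20, so differences of these sizes could not be told from 0 with the spread between these libraries. Between delE6/+ and delE6/delE6 cells the Tbxt difference was 0.98 (SE 0.274, adjusted p = 0.0101) and that of Tbx20 0.90 (SE 0.301, adjusted p = 0.0255). Both were lost with DESeq2 (adjusted p = 0.0567 and 0.105), without delE6/delE6 replicate 2 (adjusted p = 0.0609 and 0.0923) and without delE6/+ replicate 2 (adjusted p = 0.122 and 0.0854), and that of Tbx20 also without delE6/+ replicate 1 (adjusted p = 0.0913). Tbxt in Insert ASAY against delE6/+ cells (-0.76, adjusted p = 0.0265) was not called with DESeq2 (adjusted p = 0.134) or without Insert ASAY replicate 1 (adjusted p = 0.0907), Insert ASAY replicate 2 (adjusted p = 0.105) or delE6/+ replicate 2 (-0.45, adjusted p = 0.26).

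**Figure D4:**
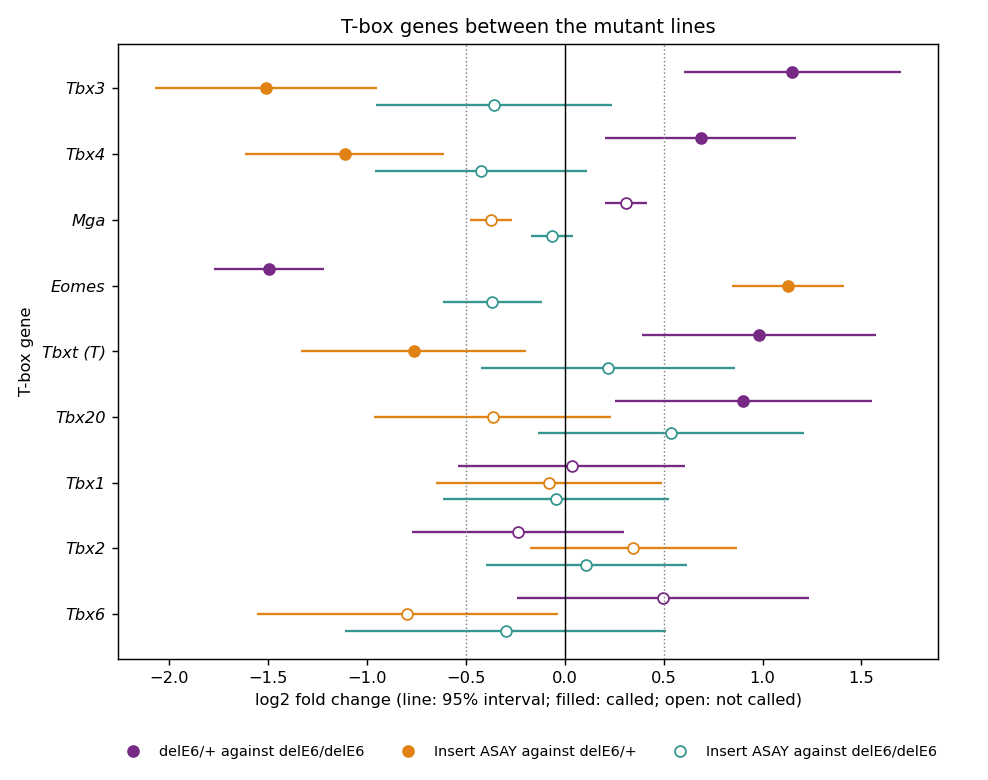
Log2 fold change of each T-box gene (vertical axis) between mutant lines (horizontal axis), with lines for 95% intervals, filled dots for called differences and dotted lines at -0.5 and 0.5. Differences that involve delE6/+ cells are called for up to 5 genes, and all dots of Insert ASAY against delE6/delE6 cells are open.

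Of the other 8 T-box genes of the annotation, Tbx15 had 57 to 107 reads per library. Tbx10, Tbx19, Tbx22 and Tbr1 did not pass the filter on low counts. Of the 4 tested, Tbx15, a gene of skeletal and skin mesenchyme, rose in delE6/+ against WT cells by 0.65 on the log2 scale, Tbx21 fell there (-1.61, with 3 to 17 reads per library), and Tbx18 fell in Insert ASAY cells (-0.96). None was called in delE6/delE6 cells by edgeR or DESeq2, and none had an unadjusted p under 0.05 there. Of all tested genes edgeR called 12.7% in delE6/delE6, 13.5% in delE6/+ and 21.3% in Insert ASAY against WT cells. With only 4 genes tested, 0 calls in delE6/delE6 cells is near that share. DESeq2 called none of the 4 in delE6/+ or Insert ASAY cells against WT either. The calls of Tbx15 and Tbx21 therefore depend on the tool, as does that of Tbx18.

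Genes that act in the primitive streak beside Tbxt, Eomes and Tbx6 did not move as a block. Of 17 listed, 10 were tested and 2 fell in delE6/delE6 against WT cells, 4 rose and 3 fell in delE6/+ cells, and 2 rose and 2 fell in Insert ASAY cells, beside 12.7%, 13.5% and 21.3% of all tested genes called. Their median log2 fold changes were -0.12, 0.32 and 0.36, and those of all tested genes were near 0, as given above. Fgf4, a growth factor of ES cells and streak, fell in all 3 lines, with log2 fold changes of -2.33, -1.68 and -1.81. Nodal, a signalling ligand, had 19.31 CPM in WT, 20.87 in delE6/delE6 and 24.65 in Insert ASAY cells. It fell in delE6/+ cells (log2 fold change -0.80), where it had 11.11 CPM. Its part in the Eomes differences was not tested. Lef1, a transcription factor of the Wnt pathway, rose by 1.23 in delE6/+ cells. Msgn1 and Mesp1, targets in mesoderm, did not reach the filter, with at most 2 and 8 reads in any library. With DESeq2 the calls numbered 2, 4 and 2 in place of 2, 7 and 4.

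The naive pluripotency network around Tbx3 was lower in all 3 lines for part of its genes. All 13 listed genes were tested, and 6 fell in delE6/delE6, 5 fell in Insert ASAY, and 8 fell while Sox2 rose in delE6/+ cells, beside 6.59%, 9.85% and 6.89% of all tested genes called lower. Medians were -0.45, -0.48 and -0.61, and DESeq2 called 4, 4 and 7 of them. Both Tfcp2l1 and Nanog fell in delE6/delE6, Insert ASAY and delE6/+ cells, with log2 fold changes of -0.90, -1.07 and -0.54 for Tfcp2l1 and -1.04, -0.73 and -0.80 for Nanog. Esrrb, a nuclear receptor that sustains self-renewal, fell in delE6/delE6 (-1.04) and Insert ASAY cells (-0.56), and had -0.12, not called, in delE6/+ cells. Pou5f1 fell in delE6/delE6 (-0.64) and delE6/+ cells (-0.68). Zfp42 was higher in Insert ASAY (0.45, adjusted p = 0.000122) and lower in delE6/+ cells (-0.38, adjusted p = 0.000981). Klf2 was higher in delE6/delE6 (0.30, adjusted p = 0.00583) and lower in delE6/+ cells (-0.22, adjusted p = 0.0383). These differences of Zfp42 and Klf2 did not pass the 0.5 limit. In bulk RNA, fewer cells of a type and less RNA per cell cannot be told apart.

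Markers of ES cells and of other cell types also moved with the genotypes. Their counts of calls stand beside 12.7% of all tested genes called in delE6/delE6, 21.3% in Insert ASAY and 13.5% in delE6/+ against WT cells. The 8 ES cell markers, several of which, such as Nanog, are also on the list around Tbx3, summed to 1182 to 1216 CPM in WT, 604.7 to 781.1 in delE6/delE6, 809 to 854.9 in Insert ASAY and 660.5 to 663.4 in delE6/+ libraries, and none of the 8 was without reads. Of them 4, 2 and 5 fell in delE6/delE6, Insert ASAY and delE6/+ cells, and 1 rose in delE6/+ cells. Dppa5a made up the largest part of the WT sum. Its mean was 544.3 CPM in WT, 200.3 in delE6/delE6, 270.3 in Insert ASAY and 181.5 in delE6/+ cells. In Insert ASAY cells Dppa4 (0.03) and Sox2 (-0.05) had log2 differences from WT near 0. The 10 embryonic fibroblast markers summed to 46.34 to 52.33 CPM in WT, 28.97 to 31.7 in delE6/delE6, 24.92 to 25.07 in Insert ASAY and 72.5 to 75.4 in delE6/+ libraries. Of the 6 tested, 3 fell in delE6/delE6, 5 fell in Insert ASAY, and 3 rose and 1 fell in delE6/+ cells, where DESeq2 called 2, 3 and 2 in these lines. Fbln2, a matrix protein, was the most abundant of them, with means of 24.88 CPM in WT and 49.08 in delE6/+ cells. Col1a2 and Thy1 also rose in delE6/+ cells, where Col3a1 fell (-1.55) and Col1a1 had 10.16 CPM beside 13.03 in WT. The fibroblast genes Postn, Prrx1, Twist2 and Lum had 0 to 7 reads in any library. The 7 primitive endoderm markers summed to 17.9 to 19.2, 12.62 to 15.51, 15.81 to 17.16 and 21.47 to 21.87 CPM in WT, delE6/delE6, Insert ASAY and delE6/+ libraries, with 1 falling in delE6/delE6, 2 rising in delE6/+ and 0 called in Insert ASAY cells (edgeR, with 1 at an unadjusted p under 0.05, and 0 with DESeq2). The part of these markers in the differences of Tbx3, Tbx4, Tbxt and Eomes was not tested.

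By pattern over the 8 libraries, the genes most like each member were taken from the 12837 tested genes that averaged 2 CPM or more, 3 for each by Pearson's correlation of log2 CPM. Closest to Tbx3 were Aass (0.996), Srp14 (0.996) and Piwil2 (0.993). For Tbx4 they were Eps8 (0.991), Cmtm6 (0.99) and Carmil2 (0.99), and for Eomes Kremen2 (0.984), Slc25a17 (0.984) and Acot9 (0.984). Mga was nearest to Gpr137c (0.997) and Tbxt to Ndufb7 (0.994). No gene was named for more than 1 member among the 27 pairs, whose correlations ran from 0.908 to 0.997. The points share library and genotype, and the values are a description without a test.

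**Figure D5:**
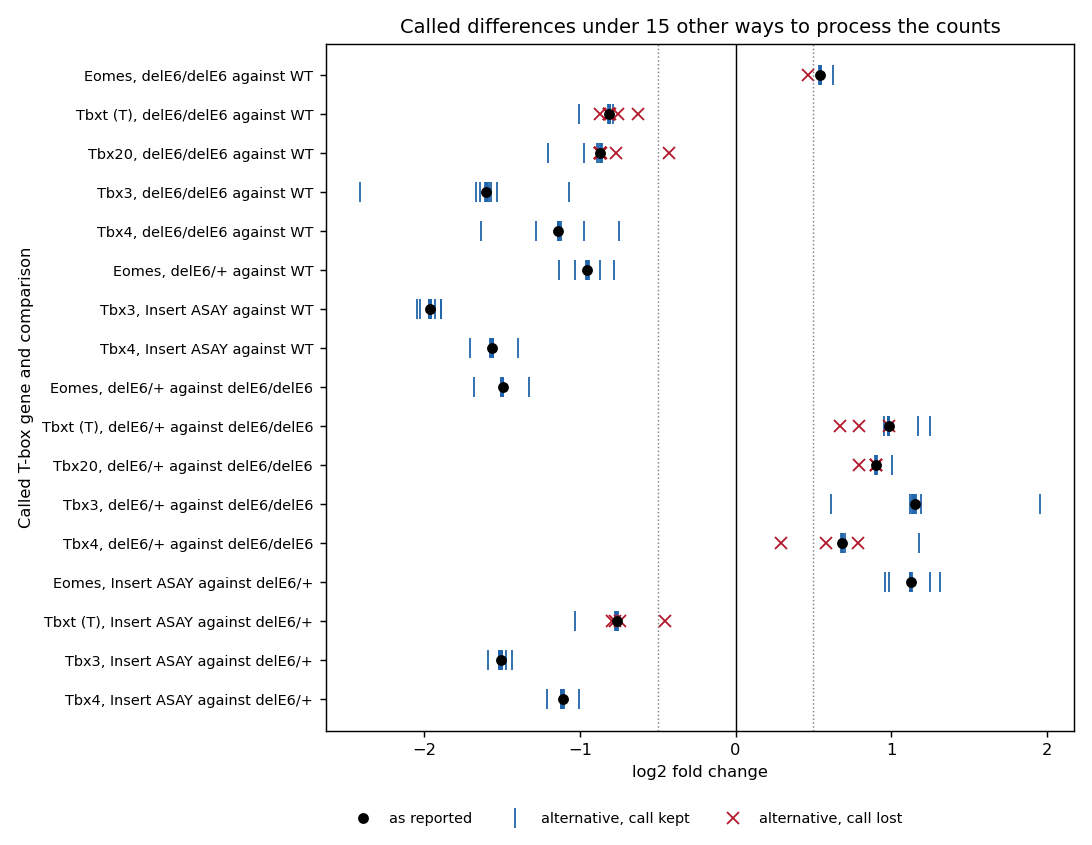
Called differences (vertical axis: gene and comparison) with the log2 fold change (horizontal axis) as reported (black dot) and under 15 alternatives (blue bars where the call was kept, red crosses where it was lost). Tbx3 in delE6/delE6 against WT cells spans -2.41 to -1.07 without losing its call, while Tbxt and Tbx20 lose theirs under several alternatives.

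The calls thus fall into those that every alternative kept and those that some alternative ended, as the plot of called differences under alternatives shows. Kept in all 15 were the falls of Tbx3 and Tbx4 in delE6/delE6 and Insert ASAY against WT cells, the fall of Eomes in delE6/+ cells, both Eomes differences and both Tbx3 differences that involve delE6/+ cells, and that of Tbx4 between Insert ASAY and delE6/+ cells. Each call of Tbxt and Tbx20, that of Tbx4 in delE6/+ against delE6/delE6 cells and that of Eomes in delE6/delE6 against WT cells was lost in at least 1.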

How the data were processed

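Poly(A) RNA was sequenced with a strand-specific kit, and the authors aligned the reads with STAR 2.7.2a to mm10 (GRCm38) and deposited whole-number read counts per gene without normalization, unstranded and for each strand. The counts of the strand that the kit reads were used. STAR's summary lines, absent from the file of WT replicate 1, were left out. Symbols, positions and exon lengths come from GENCODE M21, to which 48058 of 48440 identifiers matched.

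Counts were fitted with edgeR 4.0.16 in R 4.3.3 (TMM, filterByExpr at its defaults of 10 and 15 reads, quasi-likelihood F-test, all 8 libraries, 1 coefficient per genotype), with Benjamini-Hochberg adjustment over 17049 genes. A call required p below 0.05 after adjustment and a log2 difference of over 0.5 in size, as in the authors' analysis with DESeq2 1.40.2. Log2 CPM used a prior count of 2. Depth was 24618587 to 28445952 reads on genes per library. Steps were tested on simulated data.

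Deviations from genotype means correlated by only -0.1 to 0.0672 between same-numbered libraries, so replicate numbers were not taken to pair them. Alternatives were DESeq2 1.42.0, its size factors, other filters, unstranded counts, fits of only the genotypes compared, a replicate block and leaving out each library. Members and lists were chosen with earlier results of these data known. Named by rule are all members, up to 3 called genes of each list with the smallest adjusted p per mutant line against WT, and the 3 genes most like each member. Other list genes or comparisons named were chosen after their values were seen.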

Additional observations from a re-analysis of the deposited data

Results flagged for a closer look

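Several members were called between the mutant lines by a direct test. For delE6/+ against delE6/delE6 cells the log2 fold changes were 0.98 for Tbxt, -1.5 for Eomes, 1.15 for Tbx3, 0.69 for Tbx4 and 0.90 for Tbx20. For Insert ASAY against delE6/+ cells they were -0.76 for Tbxt, 1.13 for Eomes, -1.51 for Tbx3 and -1.11 for Tbx4. Those of Eomes and Tbx3, and that of Tbx4 between Insert ASAY and delE6/+ cells, were kept under all 15 alternatives. The others were not: DESeq2 did not call Tbxt or Tbx20, and leaving out 1 library ended the calls of Tbxt, Tbx20 and, in delE6/+ against delE6/delE6 cells, Tbx4.

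Reads on the strand opposite to Eomes, which the report's comparisons do not use, were higher in both delE6/delE6 libraries than in both WT libraries, relative to all other-strand reads. They averaged 11.96 per 1000000 of such reads in delE6/delE6 libraries. The reads were few, 11 and 19 in delE6/delE6 and 11 and 8 in WT libraries, and the annotated gene Gm33460 overlaps an Eomes exon on that strand. Reads on the strand of Eomes itself were also higher, 505 and 554 in delE6/delE6 and 366 and 397 in WT libraries. The difference on the opposite strand was not tested.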

How the results depend on the processing

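Among the 54 member differences (9 genes in 6 comparisons), DESeq2's size factors, a minimum of 10 reads in every library, unstranded counts and the replicate block each kept all 54 calls and directions. No filter on low counts added 3 calls, and the fit of only the genotypes compared lost 2 and added 3. DESeq2's Wald test lost 5 of 52, gave no adjusted p for Tbx6 and Tbx20 in Insert ASAY against delE6/delE6 cells and added none. In delE6/delE6 against WT cells the number of members called was 5 with the replicate block, 3 with DESeq2, 3 in the fit of these genotypes alone and 2 to 6 over the fits without a library. In Insert ASAY against WT cells it was 4 in place of 2 in the fit of these genotypes alone, in delE6/+ against delE6/delE6 cells 3 in place of 5 with DESeq2 and 2 to 5 without a library, and in Insert ASAY against delE6/delE6 cells 0 to 2 without a library. Over all genes, calls in delE6/delE6 against WT cells numbered 2167, and 1154 without delE6/delE6 replicate 2 or 3368 without replicate 1. In Insert ASAY against delE6/delE6 cells they numbered 880, and 572 in the fit of these genotypes alone, 581 with DESeq2 and 371 to 1529 without a library (1529 without delE6/delE6 replicate 2, 371 without Insert ASAY replicate 1). Here a genotype left with a single library is assumed to vary like the others.

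No called difference changed direction. Those not called did so without a library, over these ranges of the fits without a library. Against WT they were Tbxt in delE6/+ cells (-0.14 without delE6/+ replicate 2 to 0.44), Mga in delE6/+ cells (-0.021 without WT replicate 2 to 0.10), Tbx6 in delE6/delE6 (-0.54 to 0.54, and 0.12 without delE6/delE6 replicate 2), delE6/+ (-0.044 without WT replicate 1 to 1.03) and Insert ASAY cells (-0.84 to 0.24 without WT replicate 2), and Tbx20 in delE6/+ (-0.30 without WT replicate 2 to 0.47) and Insert ASAY cells (-0.66 to 0.11 without WT replicate 1). Between lines they were Tbx1 in delE6/+ against delE6/delE6 (-0.37 without delE6/delE6 replicate 2 to 0.56, and -0.056 without delE6/+ replicate 1), Insert ASAY against delE6/delE6 (-0.46 to 0.47 without delE6/delE6 replicate 1) and Insert ASAY against delE6/+ cells (-0.16 to 0.010 without delE6/+ replicate 1), and, in Insert ASAY against delE6/delE6 cells, Tbx3 (-0.90 without delE6/delE6 replicate 2 to 0.45 without replicate 1) and Tbx4 (-0.82 to 0.067, likewise). The cause was not tested. For named genes of the lists, 638 of 680 values kept their call, 42 lost it and 0 changed direction. The replicate block left 2 of 4 fibroblast markers called in delE6/+ cells. Ranked by Spearman's in place of Pearson's correlation, 4 of the 27 genes most like a member stayed among the first 3 of that member. Depth limits Tbxt, Tbx2, Tbx6 and Tbx20 most, with 18 to 54 reads per library.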
